A study of Homo sapiens with 12 samples.

Results

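The effect of 5’isomiR-140-3p on mRNA levels was compared between MCF10A and MDA-MB-231 cells, gene by gene, as a difference of differences. For each gene the log2 change with 5’isomiR-140-3p against the control mimics in MCF10A was subtracted from the same change in MDA-MB-231, so that a negative difference means a lower response in MDA-MB-231 and a positive one a higher response there. The comparison rests on 8 of the 12 arrays of the series and on every gene named by a probe, which left 10494 of 20044 genes once probes at background had been set aside. MCF10A is a non-transformed breast epithelial line and MDA-MB-231 a triple-negative breast cancer line. In each line, 1 sample received mimic-ctrl1, 1 received mimic-ctrl2 and 2 received 5’isomiR-140-3p, all by Lipofectamine at 30 nM, and RNA was taken 48 h later and hybridized to Illumina bead arrays. The remaining 4 arrays carry hsa-miR-140-3p, 2 in each line. The lines were grown in different media, so that line and medium cannot be told apart. By the paper's methods the MCF10A medium held horse serum, EGF, hydrocortisone, insulin and cholera toxin. MDA-MB-231 grew in RPMI1640 with FBS, and none of these added factors is listed for it. Each line stands for 1 cell source, and a synthetic mimic at this dose is an overexpression, not the level of the cells themselves.

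A miRNA is loaded into an Argonaute protein and lowers the mRNAs that pair with its seed, bases 2 to 8 from the 5’ end. A 5’isomiR is cut from the same precursor at a shifted 5’ end, which moves the seed and with it the mRNAs that can pair. Direct repression acts on mRNAs that hold a site, whereas other genes respond through transcription factors or signaling. Both kinds of response can vary with the cell, and they were not told apart here. The 2 mature forms are shown here because both lines received the same pair of oligonucleotides, at the same dose and for the same time. Seeds are in capitals, and the sequences are those of RefSeq on GRCh38.p14, on the plus strand of chromosome 16 within the MIR140 hairpin.
hsa-miR-140-3p: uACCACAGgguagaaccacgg
5’isomiR-140-3p: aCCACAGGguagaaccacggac
The canonical form is 21 bases long and spans chr16:69933142-69933162, and the 5’isomiR is 22 bases long and spans chr16:69933143-69933164. Its seed is shifted by 1 base.

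The median intensity of an array was 107 to 109, as the normalization by the authors sets it, and 13002 to 14837 probes per array lay above the background level, which was set by probes for olfactory receptor genes. Both 5’isomiR-140-3p arrays of a line correlated at 0.992 for MCF10A and 0.993 for MDA-MB-231, and the control pair, which holds a different mimic on each array, at 0.985 and 0.981. The lines matched their labels in part. Of the 7 MCF10A markers tested, 6 were above background on all 4 MCF10A arrays of the comparison, with a summed level of 11700 to 18600, against 618 to 830 in MDA-MB-231, where CDH1, CDH3, KRT5 and KRT14 were at background throughout. Of the 8 MDA-MB-231 markers tested, 7 were above background on all 4 arrays in either line. TWIST2 was at background in MDA-MB-231, and the summed level was 29300 to 32500 there and 12800 to 17700 in MCF10A. Levels below are normalized log2 values, with mimic-ctrl1 before mimic-ctrl2 and replicate 1 before replicate 2. Effects and differences are on the log2 scale, with the standard error (SE) of the limma fit. Groups hold 2 arrays, and the number of arrays limits the precision.

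The response to 5’isomiR-140-3p differed between the lines for 583 of the 10494 genes, 345 with a lower response in MDA-MB-231 and 238 with a higher one. A gene was called when its adjusted p was under 0.05 and the 2 folds differed to below 65% of each other. These are 3.29% of all genes tested for the lower and 2.27% for the higher differences, together 5.56%, and these shares are the background for every count of a gene list below. The median difference over all genes was 0.00. Within a line, 770 genes were called lower (7.34%) and 684 higher (6.52%) in MCF10A, and 534 lower (5.09%) and 338 higher (3.22%) in MDA-MB-231. Most of the differences came from genes that moved in MCF10A. The effect was the larger one in MCF10A for 439 of the 583 genes and in MDA-MB-231 for 144. A rise called in MCF10A with no call in MDA-MB-231 made up 226 of the lower differences, and a fall called in MCF10A alone made up 147 of the higher ones. In the other direction, 48 genes fell in MDA-MB-231 with no call in MCF10A and 48 rose there with no call in MCF10A. Neither effect was called on its own for 51 genes with a lower and 29 with a higher difference.

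Many called genes were not measured in both lines. Of the 583 genes, 298 were above background on all 8 arrays, 170 with a lower and 128 with a higher difference, which is 4.01% of the 7433 genes of this kind. All 4 MDA-MB-231 arrays were at background for 145 of the 583 genes, 89 lower and 56 higher, and all 4 MCF10A arrays for 46, of which 28 were lower and 18 higher. For such a gene a response was measured in 1 line only. Calls were also lost when 1 array was left out, which leaves 1 array in its group. The hsa-miR-140-3p arrays enter the fit but not the contrast. Leaving 1 of them out kept the differences as they were (BUB1B stayed at 1.03), and some calls were still lost. A lost call therefore need not mean that the difference rested on that array. With any 1 of the 12 arrays left out, 178 of the 583 calls held every time, 108 lower and 70 higher, and 69 of these 178 genes were above background on all 8 arrays. Without replicate 1 of 5’isomiR-140-3p the counts of lower and higher differences were 136 and 97 when the array was that of MCF10A, and 135 and 96 when it was that of MDA-MB-231. Without replicate 2 they were 166 and 112 for MCF10A, and 162 and 97 for MDA-MB-231. Leaving out mimic-ctrl1 of MDA-MB-231 gave 415 and 411. By a plain t statistic for the same contrast, fitted on the 8 arrays, 540 lower and 431 higher differences passed before adjustment and none after it. Calls named below held in all 12 of these fits unless an array is named.

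**Figure D1:**
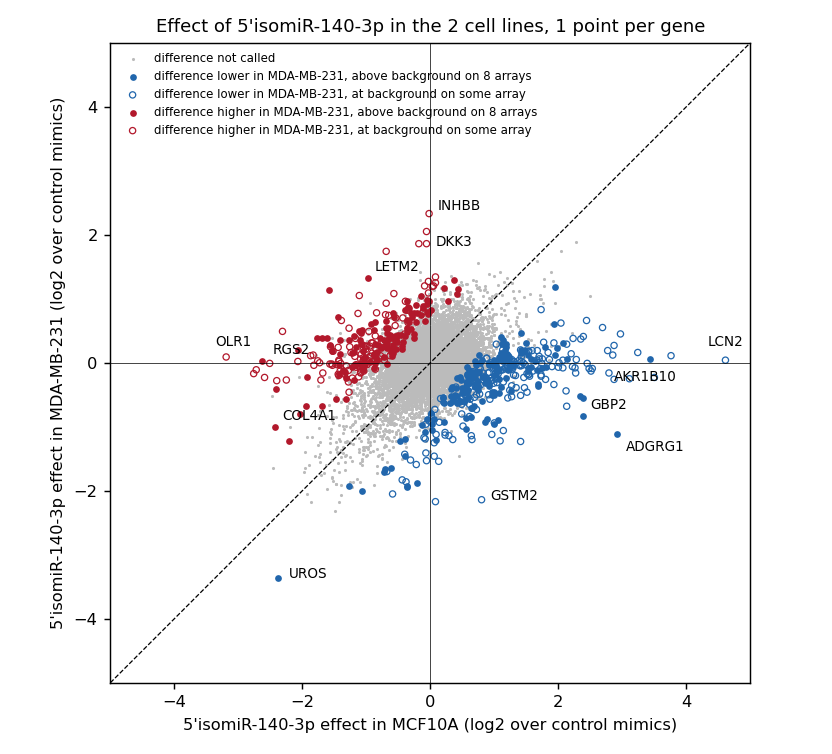
Effect of 5’isomiR-140-3p on each of the 10494 genes in MCF10A (horizontal axis, log2 over the control mimics) and in MDA-MB-231 (vertical axis, same scale), 1 point per gene, with the line of equal effects dashed. Called differences are blue where the response was lower in MDA-MB-231 (345 genes) and red where it was higher (238 genes), filled for the 298 genes above background on all 8 arrays and open for the others, and most of them spread along the horizontal axis.

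The largest differences among genes measured in both lines were genes that rose in MCF10A. ADGRG1, an adhesion G protein-coupled receptor, read 6.14 and 5.85 in the MCF10A controls and 9.01 and 8.80 with 5’isomiR-140-3p. Its MDA-MB-231 levels were 11.07 and 9.61 in the controls and 8.99 and 9.46 with the mimic. All 4 groups stand apart from their partner, upward in MCF10A and downward in MDA-MB-231, although the MDA-MB-231 controls lie far from each other. The effects were 2.91 (SE 0.37, adjusted p = 0.00068) and -1.12 (SE 0.37, adjusted p = 0.084), and the difference was -4.03 (SE 0.53, adjusted p = 0.003). The size of this difference rested on the MDA-MB-231 controls and on the background correction. It was -3.30 without mimic-ctrl1 and -4.76 without mimic-ctrl2 of that line, and -2.96 without background correction. A second probe of ADGRG1 gave a difference of -4.23.

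AKR1B10, a reductase of aldehydes and a target of the antioxidant factor NRF2, started at a low level in both lines. It read 6.58 and 5.88 in the MCF10A controls and 9.65 and 9.67 with 5’isomiR-140-3p, and in MDA-MB-231 6.02 and 6.40 in the controls and 6.40 and 6.14 with the mimic. Of these 8 arrays, the MCF10A pair with the mimic stands above the rest. The difference was -3.37 (SE 0.33, adjusted p = 0.00071). CRIP2, a LIM-domain protein, had the same form, with 6.43 and 6.52 against 8.76 and 8.48 in MCF10A and 7.28 and 7.20 against 7.38 and 7.21 in MDA-MB-231. Its difference was -2.08 (SE 0.19, adjusted p = 0.00047).

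FBXO32, the substrate-binding subunit of a muscle ubiquitin ligase also known as atrogin-1, read 7.38 and 6.97 in the MCF10A controls and 9.73 and 9.38 with 5’isomiR-140-3p. MDA-MB-231 cells held more from the outset, at 10.12 and 10.72, and read 9.82 and 9.91 with the mimic. The MCF10A level thus came near that of MDA-MB-231, and the difference was -2.93 (SE 0.31, adjusted p = 0.001). A second probe gave -1.69. CFB, complement factor B of the alternative pathway, read 8.54 and 7.50 against 10.47 and 10.25 in MCF10A and 7.24 and 7.86 against 7.09 and 6.97 in MDA-MB-231, and differed by -2.86 (SE 0.42, adjusted p = 0.0053). IKBKE, a kinase of innate immune signaling, differed by -2.0 (SE 0.17, adjusted p = 0.00044), with an MCF10A effect of 1.68 and an MDA-MB-231 effect of -0.33. TCEA2, a transcription elongation factor, differed by -2.05 (SE 0.22, adjusted p = 0.001) on its brightest probe, but a dimmer probe, at background in MCF10A, gave only -0.34.

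Among genes with a higher response in MDA-MB-231, most of the largest were falls called in MCF10A alone. RGS2, which shortens signaling by G proteins, read 8.76 and 8.87 in the MCF10A controls and 6.01 and 6.36 with 5’isomiR-140-3p, 16.2% of control (adjusted p = 3.9e-05). The MDA-MB-231 arrays read 6.89 and 6.71 in the controls and 6.92 and 6.71 with the mimic. The MDA-MB-231 groups overlap, and the difference was 2.64 (SE 0.27, adjusted p = 0.00095). RFTN1, the lipid raft protein raftlin, fell from 8.17 and 8.54 to 6.08 and 6.52 in MCF10A and stood at 10.27 and 10.76 against 10.64 and 10.78 in MDA-MB-231, a difference of 2.26 (SE 0.29, adjusted p = 0.0028).

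SLC2A3, the glucose transporter GLUT3, fell from 7.98 and 8.09 to 6.42 and 6.10 in MCF10A, whereas its MDA-MB-231 levels were 11.28 and 11.18 in the controls and 11.60 and 11.64 with the mimic. The difference was 2.16 (SE 0.19, adjusted p = 0.00044). SLC39A8, an importer of zinc and manganese, fell from 10.86 and 11.02 to 9.35 and 9.29 in MCF10A and read 8.62 and 8.77 against 9.01 and 9.14 in MDA-MB-231, so that the lines came to nearly the same level with the mimic. Its difference was 2.0 (SE 0.18, adjusted p = 0.00047), and a second probe gave 2.14. For SLC2A3 and SLC39A8 the MDA-MB-231 arrays with the mimic lay above both controls, with effects of 0.39 (adjusted p = 0.095) and 0.38 (adjusted p = 0.087).

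SMTN, the cytoskeletal protein smoothelin, read 8.53 and 8.32 against 6.86 and 7.13 in MCF10A and 7.25 and 7.09 against 7.71 and 8.04 in MDA-MB-231, a difference of 2.14 (SE 0.23, adjusted p = 0.001). Both effects were called, in opposite directions. Dimmer probes of SMTN gave 0.75 and, at background on all 8 arrays, 0.97. The calls of ADAM19 and SLC7A2 did not hold in all 12 fits with 1 array left out. ADAM19, a membrane-bound protease, differed by 2.72 (SE 0.57, adjusted p = 0.024), and without mimic-ctrl1 of MCF10A by 2.24 (adjusted p = 0.056). It was 3.43 without mimic-ctrl1 and 2.02 without mimic-ctrl2 of MDA-MB-231, called both times. Its adjusted p was also 0.07 and 0.073 without the first or the second replicate of the mimic in MCF10A, at differences of 2.80 and 2.65, and 0.085 and 0.078 without those in MDA-MB-231, at 2.71 and 2.74. SLC7A2, a transporter of arginine and lysine, differed by 2.07 (SE 0.36, adjusted p = 0.011), and by 1.93 (adjusted p = 0.053) without replicate 2 of the mimic in MDA-MB-231.

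**Figure D2:**
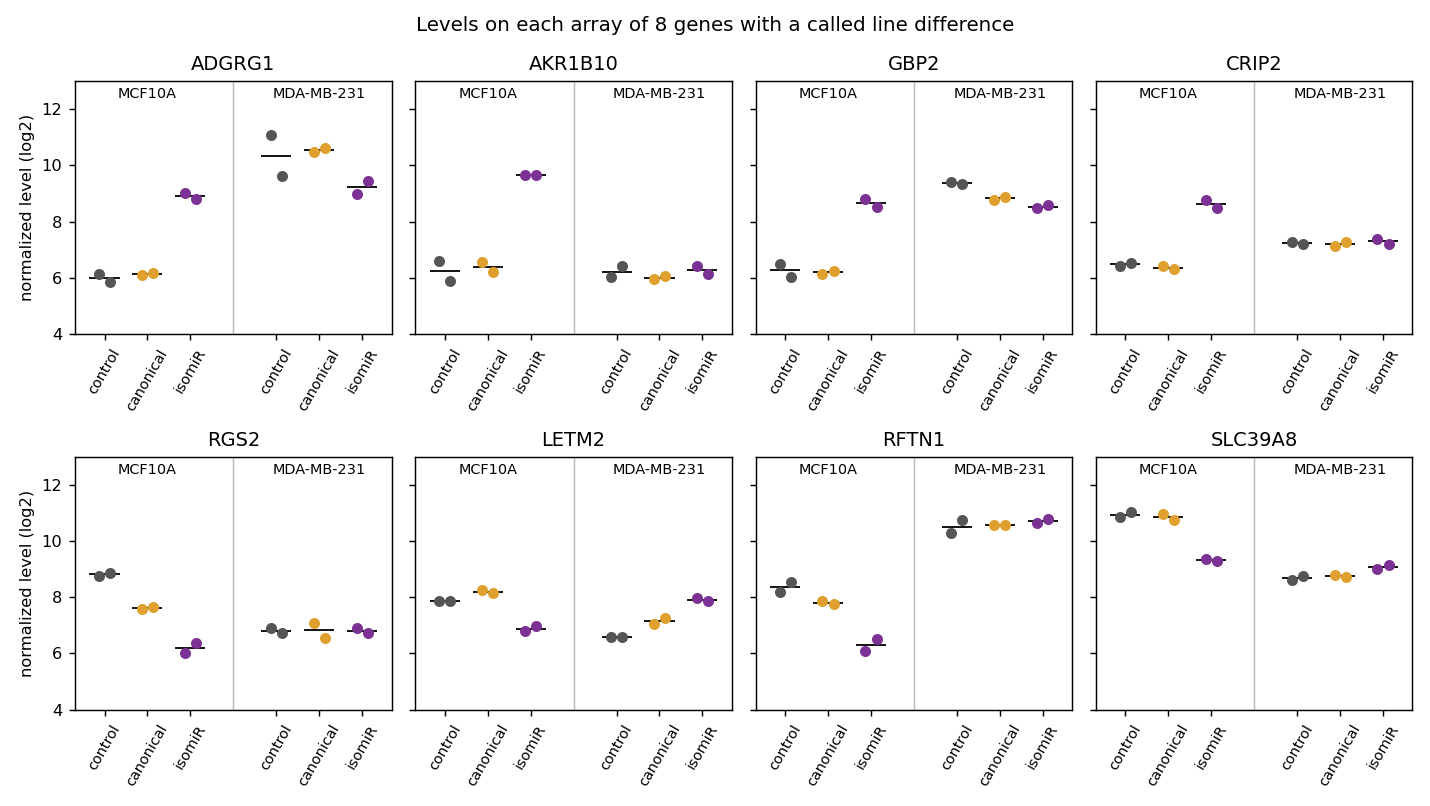
Normalized log2 level of 8 genes on each of the 12 arrays (vertical axis), with 2 points per group, the group mean as a bar, and control mimics in grey, hsa-miR-140-3p (canonical) in yellow and 5’isomiR-140-3p in purple, MCF10A left and MDA-MB-231 right. The purple points leave the other groups in MCF10A for all 8 genes, and in MDA-MB-231 ADGRG1 and GBP2 lie below and LETM2 and SLC39A8 above both controls.

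Both effects were called, in opposite directions, for 22 genes, of which 12 rose in MCF10A and fell in MDA-MB-231 and 10 did the reverse. Of the 22 genes, 10 were above background on all 8 arrays and 2 had a line at background throughout. The call of the difference held for 18 of them whichever array was left out, but the count of genes with both effects called in opposite directions fell to 7 without replicate 1 and 10 without replicate 2 of the mimic in MDA-MB-231 and was 35 without mimic-ctrl1 there. GBP2, an interferon-induced GTPase, read 6.50 and 6.03 in the MCF10A controls and 8.80 and 8.51 with 5’isomiR-140-3p. The MDA-MB-231 level went from 9.39 and 9.34 to 8.48 and 8.59. The lines thus converged from a wide gap to nearly the same level, and the difference was -3.22 (SE 0.23, adjusted p = 0.00027). LETM2, a mitochondrial inner membrane protein, did the reverse. It went from 7.87 and 7.85 to 6.79 and 6.96 in MCF10A and from 6.60 and 6.59 to 7.98 and 7.85 in MDA-MB-231, which exchanged the order of the lines (difference 2.31, SE 0.18, adjusted p = 0.00027).

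MXD4, a repressor that competes with MYC for the partner MAX, rose from 9.78 and 9.53 to 10.80 and 10.63 in MCF10A and fell from 10.78 and 10.04 to 9.30 and 9.74 in MDA-MB-231, a difference of -1.95 (SE 0.33, adjusted p = 0.01). GMPR, which turns GMP into IMP, rose from 5.75 and 5.37 to 6.71 and 6.59 and fell from 7.75 and 7.61 to 6.50 and 6.41, with 1 MCF10A control at background (difference -2.31, SE 0.20, adjusted p = 0.00044). CLDN7, a claudin of tight junctions, rose in MCF10A by 0.89 and fell by 0.88 in MDA-MB-231. Its difference was -1.77 (SE 0.32, adjusted p = 0.013), but -1.74 (adjusted p = 0.055) without replicate 1 of the mimic in MCF10A, and -1.74 (adjusted p = 0.058) and -1.81 (adjusted p = 0.05) without replicate 1 or 2 in MDA-MB-231.

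In other genes of opposite direction a group was at background. SYBU, the adaptor syntabulin that links cargo to kinesin, rose from 8.0 and 8.31 to 9.05 and 9.18 in MCF10A and fell at least 2.12-fold in MDA-MB-231, to background. ARRB1, the adaptor beta-arrestin 1, rose at least 1.21-fold from background in MCF10A and fell to 52.3% of control in MDA-MB-231, but its dimmer probes differed only by -0.43 and -0.12, and the mean of its probes (-0.83) was not called. C1orf116 fell to 46.5% of control in MCF10A and rose at least 1.55-fold from background in MDA-MB-231. GPR63, an orphan receptor, fell at least 1.16-fold to background in MCF10A and rose at least 1.29-fold from it in MDA-MB-231. GSTM2, a glutathione transferase, fell from 9.75 and 9.63 to 7.61 and 7.48 in MDA-MB-231, 22.6% of control. All 4 of its MCF10A arrays were at background, so no effect was measured there. Adjusted p-values of the differences of these 5 genes ran from 0.00018 to 0.0089.

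**Figure D3:**
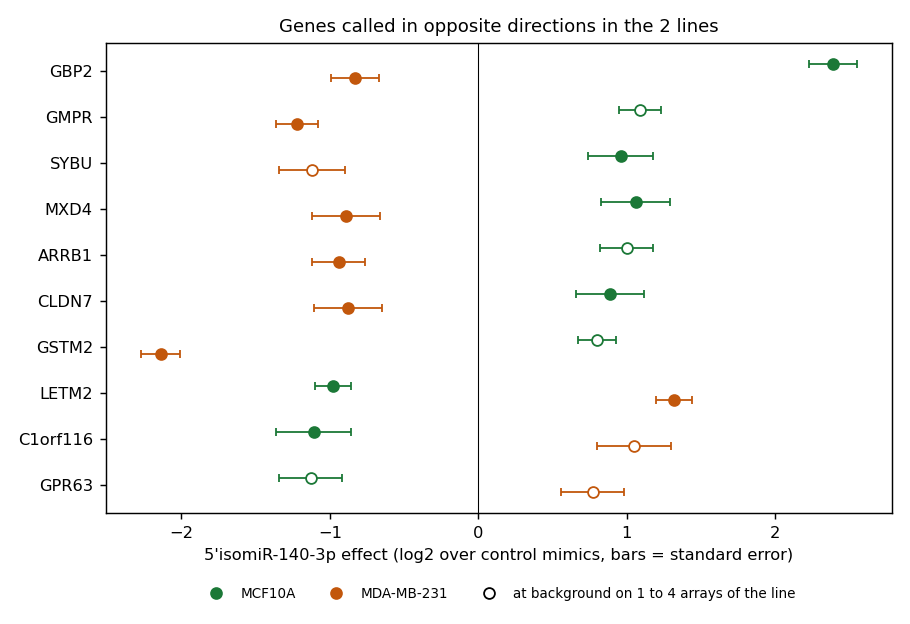
Effect of 5’isomiR-140-3p on 10 genes called in opposite directions, in MCF10A (green) and in MDA-MB-231 (orange), as log2 over the control mimics with the standard error as bar. Open symbols mark a line with at least 1 of its 4 arrays at background, and the 2 effects of each gene lie on opposite sides of 0.

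In several genes with a large difference the other line gave no level at all. LCN2, the iron-chelating secreted protein lipocalin 2, was at background in the MCF10A controls. It rose at least 16-fold with 5’isomiR-140-3p, to 9.71 and 9.51, while all 4 MDA-MB-231 arrays stayed at background. The adjusted p of the difference, 1.9e-05 by limma, thus rests on the rise in MCF10A, and no MDA-MB-231 response was measured. SAA2 and SAA4, serum amyloid A proteins, rose in MCF10A, SAA2 from 7.99 and 7.25 to 11.13 and 11.11 and SAA4 from 6.99 and 5.84 to 10.17 and 10.18. PRR15L rose from 6.13 and 5.93 to 9.21 and 9.08. All 3 were at background in MDA-MB-231, and the adjusted p-values of their differences ran from 0.00027 to 0.0022.

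The same held for falls. OLR1, a receptor for oxidized lipoprotein, read 8.46 and 7.45 in the MCF10A controls and fell at least 5.09-fold, to background. CSF3, the granulocyte growth factor G-CSF, read 7.99 and 7.82 and fell at least 4.93-fold, to background. GSDMC, a pore-forming gasdermin, fell at least 3.20-fold, also to background. SERPINB3, a protease inhibitor of squamous epithelium, fell from 8.98 and 7.51 to 5.14 and 5.83. None of these 4 genes was above background on any MDA-MB-231 array. The call of SERPINB3 (difference 2.58, adjusted p = 0.025) was lost without replicate 1 of the mimic in MCF10A (2.24, adjusted p = 0.094), without mimic-ctrl2 of MDA-MB-231 (2.52, adjusted p = 0.055), and without replicate 1 or 2 of the mimic in MDA-MB-231 (2.57 and 2.60, adjusted p = 0.089 and 0.081). Without mimic-ctrl1 or mimic-ctrl2 of MCF10A it was 1.85 or 3.32, called both times.

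Of the 274 genes called lower in both lines, 10 had a called difference, 6 with the deeper fall in MDA-MB-231 and 4 with the deeper fall in MCF10A, and of 71 genes called higher in both lines 2 had one. Genes picked for a call in both lines have similar effects by that choice, so nothing is read from these counts. UROS, an enzyme of heme synthesis, fell from 10.81 and 10.75 to 8.35 and 8.46 in MCF10A and from 11.80 and 11.92 to 8.36 and 8.64 in MDA-MB-231. The lines began apart and ended at nearly the same level, and the fall was deeper in MDA-MB-231, by -0.98 (SE 0.19, adjusted p = 0.019). Without replicate 1 or 2 of the mimic in MCF10A the difference was -1.04 (adjusted p = 0.056) or -0.93 (adjusted p = 0.069), and without replicate 1 in MDA-MB-231 it was -0.84 (adjusted p = 0.074).

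MFSD1, a lysosomal transporter, differed by -0.31 (95% confidence interval -0.80 to 0.18), at 27.4% of control for MCF10A and 22.1% for MDA-MB-231. DNM1L, the GTPase that divides mitochondria, differed by -0.81 (-1.43 to -0.20, adjusted p = 0.13) on its brightest probe and by -0.40 and 0.36 on the other probes. It was called against mimic-ctrl1 alone (-0.91, adjusted p = 0.043) and without mimic-ctrl2 of MCF10A (-1.10, adjusted p = 0.041). DDAH1, which degrades an inhibitor of nitric oxide synthesis, and MARCKSL1, a membrane-bound protein of the actin cytoskeleton, reached background in MCF10A. MARCKSL1 fell at least 3.59-fold there and to 32% of control in MDA-MB-231, and DDAH1 at least 1.96-fold and to 24.1%. With all arrays, no difference was called for MARCKSL1 (0.82, adjusted p = 0.17) or DDAH1 (-0.13, adjusted p = 0.8). Without background correction DDAH1 differed by -0.91 (adjusted p = 0.0042) and MARCKSL1 by -0.24, and without mimic-ctrl2 of MDA-MB-231 MARCKSL1 differed by 1.12 (adjusted p = 0.045).

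Of the 8 genes that the study followed up, 7 were tested and 2 differed, while CAP1 was not analysed here. COL4A1, a chain of the basement membrane collagen, fell from 9.72 and 10.21 to 7.53 and 7.58 in MCF10A and from 9.25 and 8.96 to 8.06 and 8.15 in MDA-MB-231. The MCF10A arrays thus kept 18.7% of control and the MDA-MB-231 arrays 50%, and the difference was 1.42 (SE 0.24, adjusted p = 0.0099). ITGA6, a laminin receptor chain, fell from 8.76 and 8.72 to 6.45 and 6.63 and from 8.12 and 8.10 to 6.70 and 7.07, to 21.7% and 42.8% of control. Its difference of 0.98 (SE 0.21, adjusted p = 0.025) was called with all arrays, but not without mimic-ctrl1 of MCF10A (0.96, adjusted p = 0.052), mimic-ctrl2 of MCF10A (1.0, adjusted p = 0.051), either replicate of the mimic in MCF10A (0.89 and 1.07, adjusted p = 0.099 and 0.054) or replicate 2 in MDA-MB-231 (0.80, adjusted p = 0.081). The study chose these genes with the same arrays in view, so their fall on these arrays is no independent result. The paper also reported lower mRNA of COL4A1, ITGA6 and MARCKSL1 by qRT-PCR in both lines.

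For the rest of these candidates, RUVBL1, a DNA-dependent ATPase, differed by 0.04 (95% confidence interval -0.33 to 0.41), CHCHD4, the import oxidoreductase of the mitochondrial intermembrane space, by 0.05 (-0.47 to 0.57), and SRF, the serum response factor, by 0.22 (-0.18 to 0.62). CCT5, a chaperonin subunit, differed by -0.52 (-1.03 to -0.01, adjusted p = 0.24). RUVBL1 kept 32.3% of its control level for MCF10A and 33.2% for MDA-MB-231.

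Among the lists of inflammation and innate defense, that of NF-kB held lower calls only. Of 16 targets and regulators of NF-kB tested, 6 had a called lower difference and none a higher one, with a median of -0.54, and 3 of these calls, those of LCN2, TNFAIP2 and C3, held whichever array was left out. Within MCF10A 5 of the 16 genes were called higher and 1 lower, and within MDA-MB-231 none was called. However, 2 of the 16 genes, LCN2 and C3, were at background on every MDA-MB-231 array, so no response was measured for them there. Another 2 of the 16 were at background on every MCF10A array of the comparison. The counts and the median of the list include these genes. TNFAIP2, induced by tumor necrosis factor, rose at least 1.49-fold from background in MCF10A and read 6.17 and 5.97 against 5.79 and 5.96 in MDA-MB-231 (adjusted p of the difference 0.0044). C3, the central complement protein, rose from 7.57 and 7.41 to 8.80 and 8.77 in MCF10A and was at background in MDA-MB-231 (adjusted p = 0.0046). TNF itself rose at least 2.70-fold from background in MCF10A, to 7.07 and 7.02, and was at background in MDA-MB-231 (adjusted p = 0.00047). CXCL2, a neutrophil chemokine, read 8.48 and 8.58 against 9.02 and 9.10 in MCF10A and 6.85 and 6.47 against 5.99 and 6.12 in MDA-MB-231, a difference of -1.14 (SE 0.19, adjusted p = 0.01), or -1.07 (adjusted p = 0.051) without replicate 1 of the mimic in MDA-MB-231. Cytokines as a list were not of 1 direction, with 2 lower and 2 higher of 18, and CSF3 among the higher.

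Interferon-stimulated genes, which transfected RNA can also induce, moved both ways. Of 35 tested, 3 were lower and 2 higher, with a median of 0.01. ISG15, a ubiquitin-like protein, fell from 6.39 and 6.66 by at least 1.89-fold to background in MCF10A and rose from 11.50 and 11.45 to 12.35 and 11.93 in MDA-MB-231 (effect 0.66, adjusted p = 0.025). Its difference was called (adjusted p = 0.0012). None of 13 genes of HLA class I presentation was called, but with 5.56% of all genes called a list this short would hold few or none.

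Some genes of antioxidant and glucocorticoid responses had a lower response in MDA-MB-231. Hydrocortisone, a glucocorticoid, is listed for the MCF10A medium only, and its part in these differences was not tested. Of 22 NRF2 targets, 4 were lower and none higher, of which the calls of ABCC2 and AKR1B10 held whichever array was left out, and 19 of the 22 differences were negative (median -0.21). Called rises in MCF10A numbered 5, and none of the 22 genes was called in MDA-MB-231. Besides AKR1B10, ABCC2, an exporter of conjugated compounds, rose from 6.96 and 7.29 to 8.89 and 8.82 in MCF10A and was at background in MDA-MB-231 (adjusted p = 0.00067). Of 14 glucocorticoid-induced genes, 4 were lower and none higher (median -0.44), and the calls of ERRFI1 and TSC22D3 held in all 12 fits. TSC22D3, the glucocorticoid-induced leucine zipper protein, rose from 8.85 and 8.94 to 10.98 and 10.76 in MCF10A and read 7.37 and 6.69 against 7.26 and 7.26 in MDA-MB-231. Its difference was -1.74 (SE 0.27, adjusted p = 0.0069), and other probes gave -1.79 and -2.30.

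The list of ERK targets held higher calls only. EGF is listed for the MCF10A medium only, and its part in this list and in that of EGF receptors was not tested. Of 24 targets and feedback regulators of ERK, 4 had a higher response in MDA-MB-231 and none a lower one, and 20 differences were positive (median 0.48), while PHLDA1 alone kept its call whichever array was left out. PHLDA1, a gene induced by ERK signaling, fell from 10.52 and 10.64 to 9.27 and 9.07 in MCF10A and stood at 13.15 and 12.74 against 12.99 and 13.19 in MDA-MB-231, a difference of 1.56 (SE 0.22, adjusted p = 0.0039). FOSL1, a subunit of AP-1, differed by 0.92 (SE 0.16, adjusted p = 0.012), and by 0.85 (adjusted p = 0.058) without replicate 2 of the mimic in MCF10A and 0.91 (adjusted p = 0.053) without replicate 1 in MDA-MB-231. ETV4, an ETS factor induced by ERK, moved in the other line, with 6.46 and 6.65 against 6.45 and 6.36 in MCF10A and 7.68 and 6.99 against 8.45 and 8.31 in MDA-MB-231. Its call (difference 1.20, adjusted p = 0.036) was lost in 10 of the 12 fits with 1 array left out, at differences of 0.86 to 1.55 over the 12.

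Among 13 EGF receptors, ligands and regulators, 2 were lower and 2 higher (median -0.20). NRG1, a ligand of the ERBB receptors, fell at least 3.30-fold to background in MCF10A and read 8.45 and 8.97 against 9.29 and 9.10 in MDA-MB-231 (adjusted p = 0.0016). ERRFI1, a feedback inhibitor of EGFR that also belongs to the glucocorticoid list, rose from 9.41 and 9.69 to 10.91 and 11.09 in MCF10A and read 11.92 and 12.16 against 12.15 and 12.24 in MDA-MB-231 (difference -1.29, SE 0.22, adjusted p = 0.0093). CBLB, a ubiquitin ligase that removes activated receptors, fell in MDA-MB-231 alone. It read 6.51 and 6.72 against 6.70 and 6.70 in MCF10A and fell from 7.89 and 7.94 to 6.78 and 6.64 in MDA-MB-231 (difference -1.30, SE 0.19, adjusted p = 0.0046).

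Some secreted regulators of Wnt and activin signaling differed by line. DKK1, a secreted Wnt inhibitor, fell from 10 and 10.54 to 7.80 and 7.92 in MCF10A, 18.8% of control, and read 12.08 and 12.29 against 11.77 and 11.76 in MDA-MB-231 (difference 2.0, SE 0.24, adjusted p = 0.002). A dim second probe, at background in MCF10A, gave 0.20. DKK3 and INHBB rose in MDA-MB-231 and were at background in MCF10A. DKK3, of the same family, rose at least 2.70-fold from background, to 6.97 and 7.15 (adjusted p = 0.00027). INHBB, the beta B subunit of activins, rose from 6.17 and 5.47 to 8.18 and 8.11 (adjusted p = 0.002). Over the lists, 3 of 23 Wnt genes and 2 of 29 genes of TGF-beta and activin signaling had a higher response in MDA-MB-231 and none a lower one, with medians of 0.10 and 0.06. The calls of DKK1, DKK3 and INHBB held whichever array was left out, and the second share, 6.9%, lies near the 5.56% of all genes.

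Of 15 epithelial markers, 7 were lower and 1 higher in response (median -0.93), and 7 of the 15 were at background on all 4 MDA-MB-231 arrays. The lower calls of ELF3, KRT15 and ST14 held whichever array was left out. ST14, a membrane protease of epithelia that lies outside the rule for naming, was chosen after its values were seen. ELF3, an epithelial transcription factor, rose from 6.34 and 5.27 to 8.75 and 8.61 in MCF10A and read 5.91 and 5.89 against 5.71 and 5.56 in MDA-MB-231 (difference -3.14, SE 0.41, adjusted p = 0.003). KRT15, a keratin of basal cells, rose from 5.74 and 5.14 to 7.84 and 7.82 and read 5.74 and 5.33 against 6.03 and 5.86 (difference -1.98, SE 0.28, adjusted p = 0.0045). Both genes were at background on mimic-ctrl2 of MCF10A. In MDA-MB-231, ELF3 was at background on replicate 2 of the mimic and KRT15 on mimic-ctrl2. Their differences are fitted values, not bounds. KRT14, the other basal keratin, went the opposite way in MCF10A, from 13.05 and 12.62 to 11.31 and 11.48, at background in MDA-MB-231 (difference 1.26, adjusted p = 0.012, but 1.18 and 0.057 without replicate 1 of the mimic in MCF10A and 1.18 and 0.056 without replicate 2 in MDA-MB-231). TGM1, which cross-links the cornified envelope, fell from 8.44 and 7.80 to 6.23 and 6.55 in MCF10A and was at background in MDA-MB-231 (adjusted p = 0.0069). It belongs to a list of 20 keratinocyte differentiation genes, of which 1 was lower and 3 were higher. In that list 13 differences were negative and 7 positive (median -0.23), and 12 genes were at background on all 4 MDA-MB-231 arrays.

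Cell cycle genes had mostly positive differences, though few of them passed the test. Of 51 genes of G1/S transition and DNA replication, 47 had a positive difference, with a median of 0.52, and 4 were called, all higher in MDA-MB-231, a share of 7.84% beside 5.56% over all genes. In MDA-MB-231 14 of the 51 were called higher and none lower, and in MCF10A 1 was called higher and 3 lower. CCNE1, cyclin E1, fell from 9.07 and 9.27 to 8.36 and 8.33 in MCF10A and read 7.61 and 7.56 against 7.74 and 7.99 in MDA-MB-231 (difference 1.10, SE 0.18, adjusted p = 0.0074). The other called genes were E2F8, UHRF1 and TYMS, with TYMS, the thymidylate synthase, named after its values were seen. TYMS read 11.15 and 11.34 against 11.58 and 11.65 in MCF10A and rose from 10.23 and 10.38 to 11.59 and 11.62 in MDA-MB-231, and its difference of 0.93 (adjusted p = 0.016) was not called without replicate 1 of the mimic in MCF10A or without replicate 1 or 2 of it in MDA-MB-231 (differences of 0.83 to 1.03 over the 12 fits, adjusted p up to 0.068). E2F8, a repressor of the E2F family, was at background on all MCF10A arrays and on the MDA-MB-231 controls, and its call was lost without the same 3 arrays (1.08, 1.21 and 1.15, adjusted p = 0.077, 0.064 and 0.069) and without background correction (adjusted p = 0.069). UHRF1, a factor of DNA methylation upkeep, lost its call in 8 of the 12 fits, at differences of 0.82 to 1.26 over the 12 (adjusted p up to 0.1), and differed by 0.05 on a second probe.

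Of 57 genes of G2/M and mitosis, 50 had a positive difference (median 0.31). Of the 57, 4 were called, all higher, a share of 7.02% near the 5.56% of all genes. In MDA-MB-231 27 were called higher and 2 lower, and in MCF10A 4 were called higher and 2 lower. The called genes were BUB1B and MAD2L1 of the spindle checkpoint, SPC25 of the kinetochore, and CDK1, the mitotic kinase, which was named after its values were seen. SPC25 read 8.27 and 8.08 against 8.40 and 8.36 in MCF10A and rose from 7.32 and 7.32 to 8.60 and 8.38 in MDA-MB-231 (difference 0.96, SE 0.18, adjusted p = 0.016), but its adjusted p was 0.06 and 0.062 without replicate 1 or 2 of the mimic in MCF10A (0.98 and 0.94) and 0.07 without replicate 1 in MDA-MB-231 (0.85). None of the calls of BUB1B, CDK1 and MAD2L1 held in all fits, and all 3 were lost with no filter on low probes (adjusted p = 0.074, 0.086 and 0.081). For MAD2L1, a second probe gave -0.10 where the brightest gave 0.86. The control mimics bear on this list. Its median difference was 0.06 against mimic-ctrl1 alone and 0.56 against mimic-ctrl2 alone, beside 0.45 and 0.51 for the G1/S list.

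**Figure D4:**
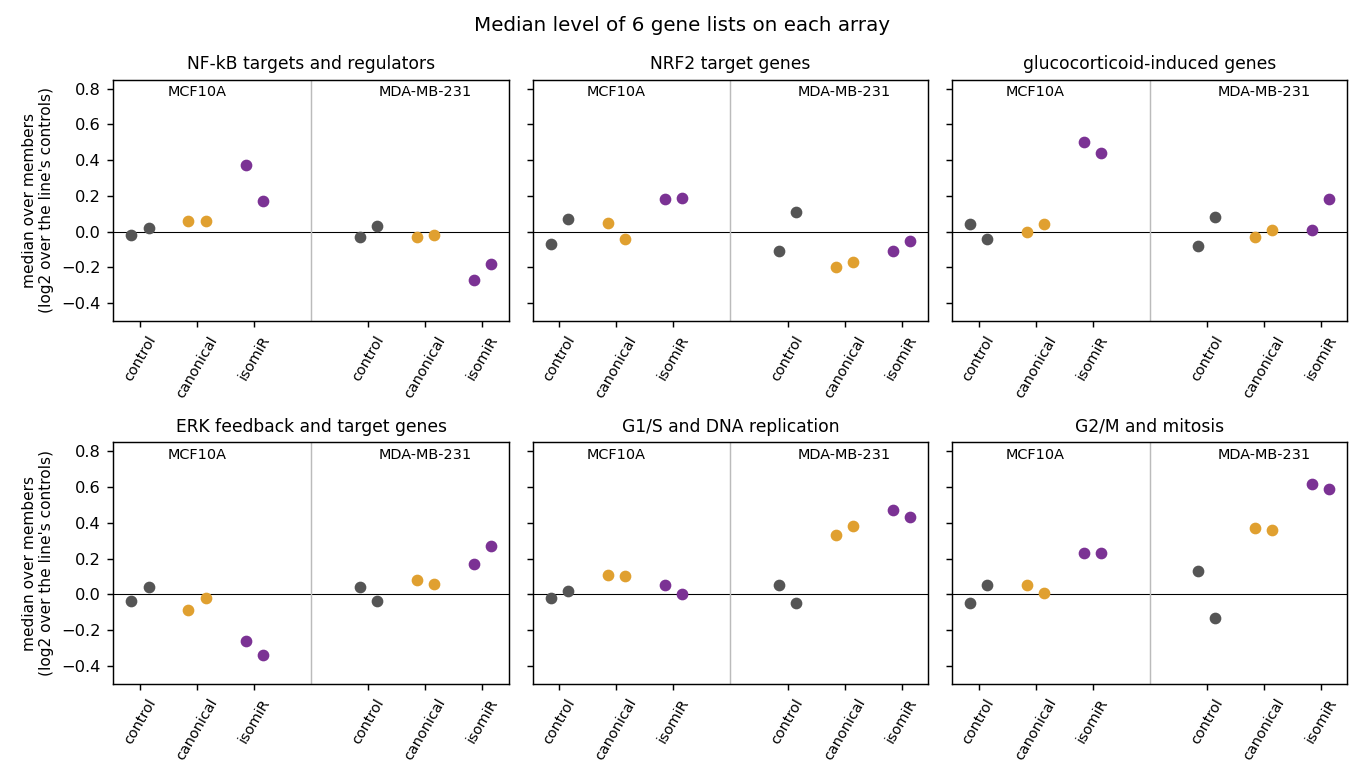
Median over the members of 6 gene lists on each of the 12 arrays, as log2 over the mean of the control mimics of the line (vertical axis), with control mimics in grey, hsa-miR-140-3p (canonical) in yellow and 5’isomiR-140-3p in purple. NF-kB targets lie at 0.37 and 0.17 on the purple MCF10A points and at -0.27 and -0.18 in MDA-MB-231, and G2/M genes at 0.23 on both MCF10A arrays and 0.62 and 0.59 in MDA-MB-231, where hsa-miR-140-3p gives 0.37 and 0.36.

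The other lists gave few calls. Of 29 targets of p53 and CDK inhibitors, 2 were lower, a share of 6.9% near the 5.56% of all genes. SPATA18, a p53 target of mitochondrial quality control, rose from 7.18 and 6.81 to 8.13 and 8.05 in MCF10A. It was at background in MDA-MB-231 (adjusted p of the difference 0.0083). Of 45 genes of vesicle traffic and lysosomes, 3 were lower, a share of 6.67%, also near that of all genes. GABARAPL1, an autophagosome protein of the ATG8 family, rose from 6.50 and 6.87 to 7.93 and 8.02 in MCF10A and read 7.77 and 7.81 against 7.75 and 7.73 in MDA-MB-231 (difference -1.35, SE 0.20, adjusted p = 0.006). Of 36 genes of SRF and the actin cytoskeleton, 1 was higher, CNN3, the actin-binding calponin 3, which fell to 37.3% of control in MCF10A and read 12.07 and 12.02 against 11.94 and 12.10 in MDA-MB-231 (difference 1.40, SE 0.24, adjusted p = 0.01). None of 34 genes of the unfolded protein response and ATF4 pathway and none of 20 genes of the miRNA machinery was called. With 5.56% of all genes called, lists of this size would hold few calls, so nothing is read from this. The median difference of the miRNA machinery, which includes the Argonaute genes, was -0.12.

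With hsa-miR-140-3p no line difference was called for any gene. By limma, 833 of the 10494 genes had an unadjusted p under 0.05 and the smallest adjusted p was 0.17. By a plain t statistic on the same arrays 830 did, and none after adjustment. Both comparisons use the same control arrays, so their values are only set side by side. Over the genes called lower with 5’isomiR-140-3p the median difference with hsa-miR-140-3p was -0.27, and over those called higher 0.36. With the 5’isomiR first and the canonical form second, ADGRG1 differed by -4.03 and 0.07, AKR1B10 by -3.37 and -0.37, GBP2 by -3.22 and -0.47, FBXO32 by -2.93 and -0.65, CFB by -2.86 and -0.83, CRIP2 by -2.08 and 0.08, TCEA2 by -2.05 and 0.18, and IKBKE by -2.0 and -0.95. Among the higher ones, ADAM19 differed by 2.72 and 1.36, RGS2 by 2.64 and 1.22, LETM2 by 2.31 and 0.21, RFTN1 by 2.26 and 0.62, SLC2A3 by 2.16 and 1.35, SMTN by 2.14 and 1.04, SLC7A2 by 2.07 and 0.65, and SLC39A8 by 2.0 and 0.15. The canonical differences ran from -0.95 to 1.36, and none was called. In RGS2 and SLC2A3 the canonical form shared part of the fall in MCF10A, with effects of -1.20 and -1.59 beside -2.63 and -1.77.

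The difference between the mimics was tested directly, with the hsa-miR-140-3p arrays in place of the controls. It was called for 350 genes, 217 lower (2.07%) and 133 higher (1.27%) in MDA-MB-231. Of the 583 genes above, 250 (42.9%) were called here in the same direction. Both tests use the 5’isomiR-140-3p arrays. Among the called were ADGRG1 (-4.10, adjusted p = 0.0043), GBP2 (-2.74, adjusted p = 0.00055), LETM2 (2.09, adjusted p = 0.00055), SLC39A8 (1.85, adjusted p = 0.00094), COL4A1 (1.26, adjusted p = 0.024) and UROS (-1.03, adjusted p = 0.022). None of the 8 cell cycle genes named above was called against hsa-miR-140-3p, where CCNE1, E2F8, UHRF1 and TYMS differed by 0.47, 0.61, 0.79 and 0.26 and BUB1B, SPC25, MAD2L1 and CDK1 by 0.35, 0.31, 0.65 and 0.14 (adjusted p from 0.1 to 0.74). Nor was ITGA6 of the study's candidates (0.35, adjusted p = 0.45). ADAM19 (1.37, adjusted p = 0.25), SLC7A2 (1.43, 0.065), SLC2A3 (0.80, 0.052), GSDMC (1.21, 0.083), TGM1 (1.08, 0.062), KRT14 (0.53, 0.27), ETV4 (1.14, 0.056), CXCL2 (-0.63, 0.13) and C3 (-0.81, 0.056) also lost their calls. Median differences of the lists went from 0.31 to 0.02 for G2/M, from 0.52 to 0.25 for G1/S, from -0.21 to -0.08 for NRF2 targets and from -0.93 to -0.50 for epithelial markers. Those of NF-kB (-0.54 to -0.49), ERK (0.48 to 0.42) and glucocorticoid genes (-0.44 to -0.51) moved less.

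**Figure D5:**
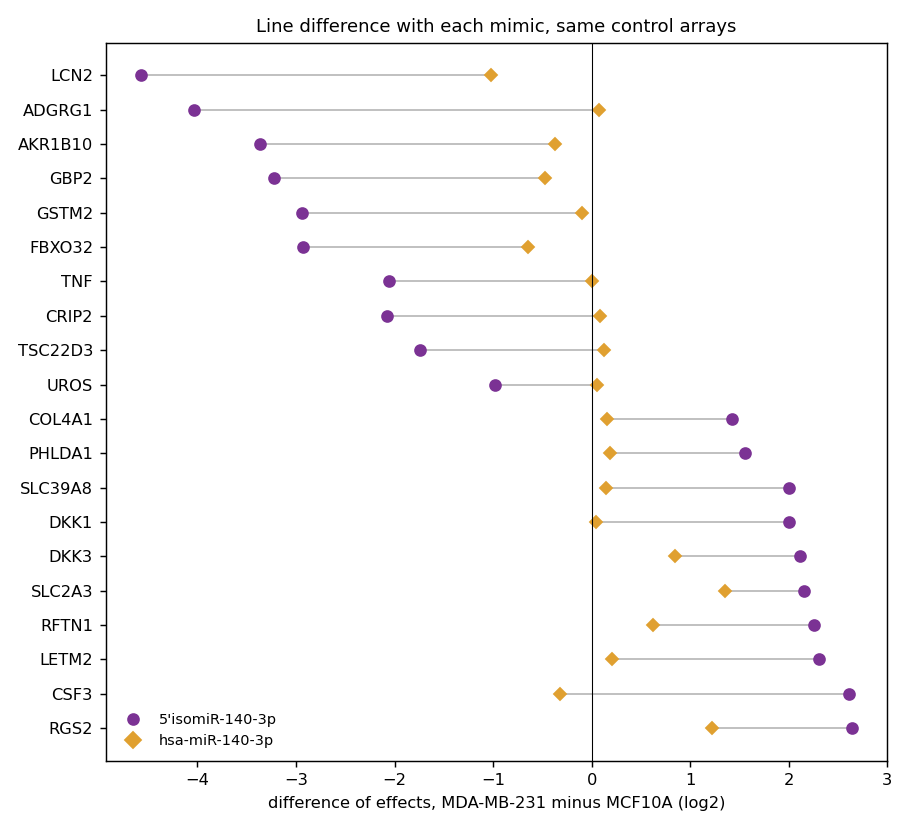
Difference between the lines (MDA-MB-231 minus MCF10A, log2, horizontal axis) of the effect of 5’isomiR-140-3p (purple circles) and of hsa-miR-140-3p (yellow diamonds) on 20 genes, against the same control arrays. The circles run from -4.57 for LCN2, where the MDA-MB-231 arrays are at background, to 2.64 for RGS2, and the diamonds from -1.02 to 1.35.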

How the data were processed

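RNA of 12 samples, 6 of each line, was hybridized to Illumina HumanHT-12 v4 bead arrays. The authors normalized the arrays of each line, and the deposited values are linear intensities without background subtraction. A second table with 24 columns not tied to samples was not used. Of 47323 probes, 30111 had 1 gene in the platform annotation, and 30072 symbols were updated through RefSeq. Intensities were corrected by normexp with an offset of 16 from 455 olfactory receptor probes, quantile normalized over the 12 arrays and set on a log2 scale. Probes above the 0.99 quantile of the olfactory receptor probes on at least 2 arrays were kept (13709), with the brightest for each of 10494 genes. Group means were fitted with limma 3.58.1 in R 4.3.3 (6 residual and 3.79 prior degrees of freedom), with Benjamini-Hochberg adjustment over all genes. At least N-fold compares a group mean with the lowest signal above background. Named genes were the largest called differences by class, genes of 32 lists and the study's candidates. Members and lists were chosen with earlier results of these data known. Alternatives changed background correction, filter, probe choice, arrays, reference, fold limit and test. The methods speak of biological replicates, but controls are 1 array per mimic, and p-values measure only the spread between these arrays.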

Additional observations from a re-analysis of the deposited data

Results flagged for a closer look

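The difference between the lines was itself the tested contrast, so every called result differs between the lines by its own test in limma. This holds for the 345 genes with a lower and the 238 genes with a higher response to the 5’isomiR in MDA-MB-231. Among named genes above background on all 8 arrays the difference on the log2 scale was negative for ADGRG1 -4.03, AKR1B10 -3.37, GBP2 -3.22, FBXO32 -2.93, CFB -2.86, CRIP2 -2.08, TCEA2 -2.05, IKBKE -2.0, MXD4 -1.95, CLDN7 -1.77, UROS -0.98, CXCL2 -1.14, CBLB -1.30, ERRFI1 -1.29, TSC22D3 -1.74 and GABARAPL1 -1.35. It was positive for ADAM19 2.72, RGS2 2.64, LETM2 2.31, RFTN1 2.26, SLC2A3 2.16, SMTN 2.14, SLC7A2 2.07, SLC39A8 2.0, COL4A1 1.42, ITGA6 0.98, PHLDA1 1.56, ETV4 1.20, FOSL1 0.92, DKK1 2.0, CCNE1 1.10, UHRF1 1.04, TYMS 0.93, BUB1B 1.03, SPC25 0.96, MAD2L1 0.86, CDK1 0.67 and CNN3 1.40. With background on 1 to 3 arrays of a line the fitted differences, which are not bounds, were GMPR -2.31, SYBU -2.08, ARRB1 -1.93, TNFAIP2 -1.73, KRT15 -1.98 and ELF3 -3.14 and, in the positive direction, C1orf116 2.15, GPR63 1.90, ISG15 2.06 and NRG1 2.80. At background on all 4 MDA-MB-231 arrays were LCN2 -4.57, SAA2 -3.73, SAA4 -3.65, PRR15L -3.36, TNF -2.06, C3 -1.36, SPATA18 -1.22 and ABCC2 -1.94, and also OLR1 3.28, CSF3 2.61, SERPINB3 2.58, GSDMC 2.50, KRT14 1.26 and TGM1 1.73, and on all 4 MCF10A arrays GSTM2 -2.94, INHBB 2.34, DKK3 2.11 and E2F8 1.18. Groups of 2 arrays are too small to look for arrays that stand apart within a group.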

How the results depend on the processing

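Counts of called differences, 345 lower and 238 higher in MDA-MB-231, with 298 above background on all 8 arrays, depended on the processing. Counts under 1 sample left out ranged from 135 to 415 lower, 96 to 411 higher and 84 to 490 on all 8 arrays, beside 971 to 1556 genes called in MCF10A (1454 with all arrays), 459 to 1239 in MDA-MB-231 (872), 0 to 4 for the hsa-miR-140-3p line difference (0), 100 to 552 against hsa-miR-140-3p (350) and 7 to 35 in opposite directions (22). Without background correction 765, 515 and 6 genes were called in MCF10A, in MDA-MB-231 and in opposite directions, and with deposited values on a log2 scale 759, 511 and 5. Among genes on all 8 arrays, 185 were called with no filter and 197 with a looser one. Testing those genes alone gave 187 lower, 149 higher, 919 in MCF10A, 176 against hsa-miR-140-3p and 12 opposite. A fit of the 8 arrays only gave 154, 92 and 89 on all 8 arrays. The plain t statistic on the 8 arrays gave 0 lower, 0 higher, 0 on all 8 arrays and 0 opposite after adjustment. It gave 464 for MCF10A and 153 for MDA-MB-231 after adjustment, and 540, 431 and 519 before it. A trended, robust fit called 3 line differences for hsa-miR-140-3p. No fold limit gave 2184 in MCF10A and 41 opposite, and an upper limit of 65% above gave 13 opposite. With mimic-ctrl1 alone, 5 hsa-miR-140-3p differences, 780 against hsa-miR-140-3p and 35 opposite were called. With mimic-ctrl2 alone, 523 lower, 478 higher, 601 on all 8 arrays, 1403 in MDA-MB-231, 14 for hsa-miR-140-3p, 780 against it and 45 opposite were called. With hsa-miR-140-3p as reference 217, 133 and 151 were called. A fit on 8 arrays or with 1 left out has fewer samples. For the other settings the cause was not tested.

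Named genes kept direction and call in 1886 of their fits, lost the call in 212, gained it in 5 (DDAH1 without background correction and with deposited values, -0.91 and -0.92, DNM1L with mimic-ctrl1 alone and without mimic-ctrl2 of MCF10A, -0.91 and -1.10, and MARCKSL1 without mimic-ctrl2 of MDA-MB-231, 1.12) and changed sign in 13, all among genes not called. MARCKSL1 was -0.24 without background correction and with deposited values. CHCHD4 was -0.30 with mimic-ctrl2 alone, -0.19 against hsa-miR-140-3p, -0.09 without mimic-ctrl1 and -0.02 without replicate 1 of the mimic in MCF10A, and -0.16 and -0.04 without these in MDA-MB-231, up to 0.26 without mimic-ctrl2 there. RUVBL1 was -0.01 with mimic-ctrl2 alone, -0.02 without mimic-ctrl1 of MCF10A and -0.04 without replicate 2 of the mimic in MDA-MB-231, up to 0.12 without replicate 1. DDAH1 was 0.06 against hsa-miR-140-3p and 0.13 without replicate 2 of the mimic in MDA-MB-231, and -0.40 without replicate 1. For control mimics the replicate number is the mimic, shared by both lines, and for the others it is only a number. Deviations of same-numbered arrays of the 2 lines correlated at 0.29 for control mimics, -0.05 for 5’isomiR-140-3p and -0.03 for hsa-miR-140-3p. With the replicate block, 271 lower and 184 higher differences were called, 233 and 155 of them shared with the fit without it, and BUB1B, CDK1, ETV4 and MAD2L1 lost their calls (adjusted p = 0.064, 0.082, 0.068 and 0.06). The probe signal over background limits genes near background, and 2 arrays a group limit every call.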
